A study of Mus musculus with 24 samples.

Results

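The genes described are the Jun and Fos proteins that form the transcription factor AP-1 (Jun, Junb, Jund, Fos, Fosb, Fosl1 and Fosl2), the related factor Atf3, and Egr1 and Gadd45b, which are induced by the same signals. They were listed by name, and 9 of the 10 could be measured among the 18820 genes of the array. Each of the 9 had 1 probe set. The 2 probe sets for Fosl1 were also assigned to Ccdc85b, so no value is given for Fosl1.

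Liver RNA of 24 mice was profiled, with 8 groups of 3 separate animals each. The NEMO/JNK knockouts, untreated and aged 52 weeks, are labelled a triple knockout: Cre under the albumin promoter removes NEMO and JNK1 from hepatocytes, and JNK2 is lacking as in the JNK knockouts. The JNK knockout mice were examined after 40 days of diethylnitrosamine (DEN), a liver carcinogen, or after 28 days of bile duct ligation (BDL), which blocks bile flow. The last pair of groups, untreated and 8 weeks old, was labelled NEMO/JNK1 knockout and NEMO knockout. By the protocol, JNK knockout mice carry a floxed Jnk1 and lack Jnk2 in the whole body on a C57BL/6 background. The reference livers were labelled control at 52 weeks, after DEN and after BDL. NEMO-floxed mice and NEMO knockouts are named as controls of the NEMO/JNK line, and the genotype of the controls of the DEN and BDL experiments is not stated. The ages of the DEN and BDL mice are not given either.

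JNK1 and JNK2 phosphorylate the activation domain of c-Jun, the product of Jun, and also JunD and ATF2, and thereby raise transcription from AP-1 sites. Jun proteins pair with each other or with Fos proteins, and most of these genes are transcribed within minutes of growth factor, cytokine or stress signals, JunD being the more constantly expressed. In liver, c-Jun is known for its part in regeneration and in the early stages of tumour formation, and GADD45B is known as an NF-kB target that binds the JNK activating kinase MKK7. NEMO, encoded by Ikbkg, is the regulatory subunit of the kinase that activates NF-kB.

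The promoter windows of the genes on which the comparisons turn, and of Jun and Fos as the core AP-1 pair, are shown for the elements through which AP-1 and related factors act on these genes. They are RefSeq sequences of mouse build GRCm38.p6, 250 bases before to 50 bases after the annotated start, 5′ to 3′ on the strand of the gene, with motif matches in capitals. Jun lies at chr4:95052173-95052472 on the minus strand, Jund at chr8:70697489-70697788 on the plus strand, Fos at chr12:85473640-85473939 on the plus strand, Atf3 at chr1:191183284-191183583 on the minus strand and Gadd45b at chr10:80929841-80930140 on the plus strand.
Jun: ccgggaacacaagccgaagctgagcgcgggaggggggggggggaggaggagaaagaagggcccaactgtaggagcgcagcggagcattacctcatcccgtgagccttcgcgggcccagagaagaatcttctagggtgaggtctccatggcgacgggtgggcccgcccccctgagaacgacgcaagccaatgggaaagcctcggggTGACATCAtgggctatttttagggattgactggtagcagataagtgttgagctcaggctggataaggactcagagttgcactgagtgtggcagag
Jund: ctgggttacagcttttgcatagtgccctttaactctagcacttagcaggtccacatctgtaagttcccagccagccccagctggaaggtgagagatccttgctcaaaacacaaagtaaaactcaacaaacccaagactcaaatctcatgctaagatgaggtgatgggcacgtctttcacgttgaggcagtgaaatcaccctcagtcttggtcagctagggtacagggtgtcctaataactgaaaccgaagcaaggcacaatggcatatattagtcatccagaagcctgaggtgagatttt
Fos: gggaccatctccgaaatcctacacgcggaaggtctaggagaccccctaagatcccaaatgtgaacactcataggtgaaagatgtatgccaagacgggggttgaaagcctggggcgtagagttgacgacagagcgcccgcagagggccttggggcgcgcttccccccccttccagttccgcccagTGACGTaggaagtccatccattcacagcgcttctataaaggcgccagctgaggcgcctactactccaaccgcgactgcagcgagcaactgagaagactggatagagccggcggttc
Atf3: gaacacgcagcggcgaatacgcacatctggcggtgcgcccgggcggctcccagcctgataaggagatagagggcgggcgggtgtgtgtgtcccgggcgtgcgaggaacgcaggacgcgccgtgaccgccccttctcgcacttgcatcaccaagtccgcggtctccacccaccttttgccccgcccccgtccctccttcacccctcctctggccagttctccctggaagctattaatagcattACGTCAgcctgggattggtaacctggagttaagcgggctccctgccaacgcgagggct
Gadd45b: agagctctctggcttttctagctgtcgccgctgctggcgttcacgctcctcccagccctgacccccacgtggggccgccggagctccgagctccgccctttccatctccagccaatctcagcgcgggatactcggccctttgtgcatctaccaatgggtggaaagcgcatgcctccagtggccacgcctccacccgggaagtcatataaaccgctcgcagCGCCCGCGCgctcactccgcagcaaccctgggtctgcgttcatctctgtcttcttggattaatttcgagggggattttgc
The motifs were searched on both strands in 32851 promoter windows of the mouse genome, 8 of which belonged to the listed genes. The AP-1 site TGANTCA was found in none of the 8 and in 7.81% of all windows. Its longer cAMP and ATF variant TGACNTCA, present in 8.83% of windows, was matched in Jun, at -45 to -38 from the start. The short core of the cAMP element, TGACGT, without the letters that complete the element, present in 7.51% of windows, was matched in Fos at -66 to -61 and, on the other strand, in Atf3 at -8 to -3. The EGR site GCGNGGGCG, present in 5.55% of windows, was matched in Gadd45b at -30 to -22, and also in Fosb and Fosl2. The CArG box, the element bound by serum response factor, was matched in 1.63% of windows and in none of the 8. Egr1 had no window, and sequence more than 250 bases before the start was not searched, so elements there are not covered. The Jund window held no match. A match is a run of letters and not a measured binding site.

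Array medians over all probe sets lay between 4.52 and 4.66 on the log2 scale, and arrays of the same group correlated at 0.966 to 0.987 across probe sets. The 9 measured hepatocyte markers stood at 10.67 to 13.33 on all arrays. Mapk8, which encodes JNK1, was lower in all 4 knockout groups than in their references (differences of -0.61 to -1.02), and fell past the threshold at 52 weeks (adjusted p = 0.00259, limma) and after BDL (0.0299). The BDL call on Mapk8 was lost with the replicate block, with the animal series as a block and without control replicate 1 or 2 or JNK replicate 1 or 3. Mapk9, which encodes JNK2, did not separate JNK knockout from control livers: it lay at 2.82 to 3.51 in all 18 livers of the 52-week, DEN and BDL experiments and at 7.99 to 8.53 in the 6 livers aged 8 weeks. The 9 livers labelled control thus overlapped in Mapk9 with the livers labelled as lacking JNK2. By these probe sets, livers labelled JNK knockout and control differed in Mapk8 and were not told apart by Mapk9, and this holds for every difference between them given here. Ikbkg fell at 52 weeks (difference -0.85, adjusted p = 0.0043). At 8 weeks it averaged 6.92 in the NEMO/JNK1 livers and 7.07 in livers labelled NEMO, against 6.98 and 7.02 in the JNK knockouts after DEN and BDL, which keep NEMO by label. In livers labelled control Ikbkg averaged 7.30 at 52 weeks, 7.14 after DEN and 7.39 after BDL. The JNK livers after BDL lay below their controls in Ikbkg without overlap (difference -0.37, adjusted p = 0.145, limma).

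**Figure D1:**
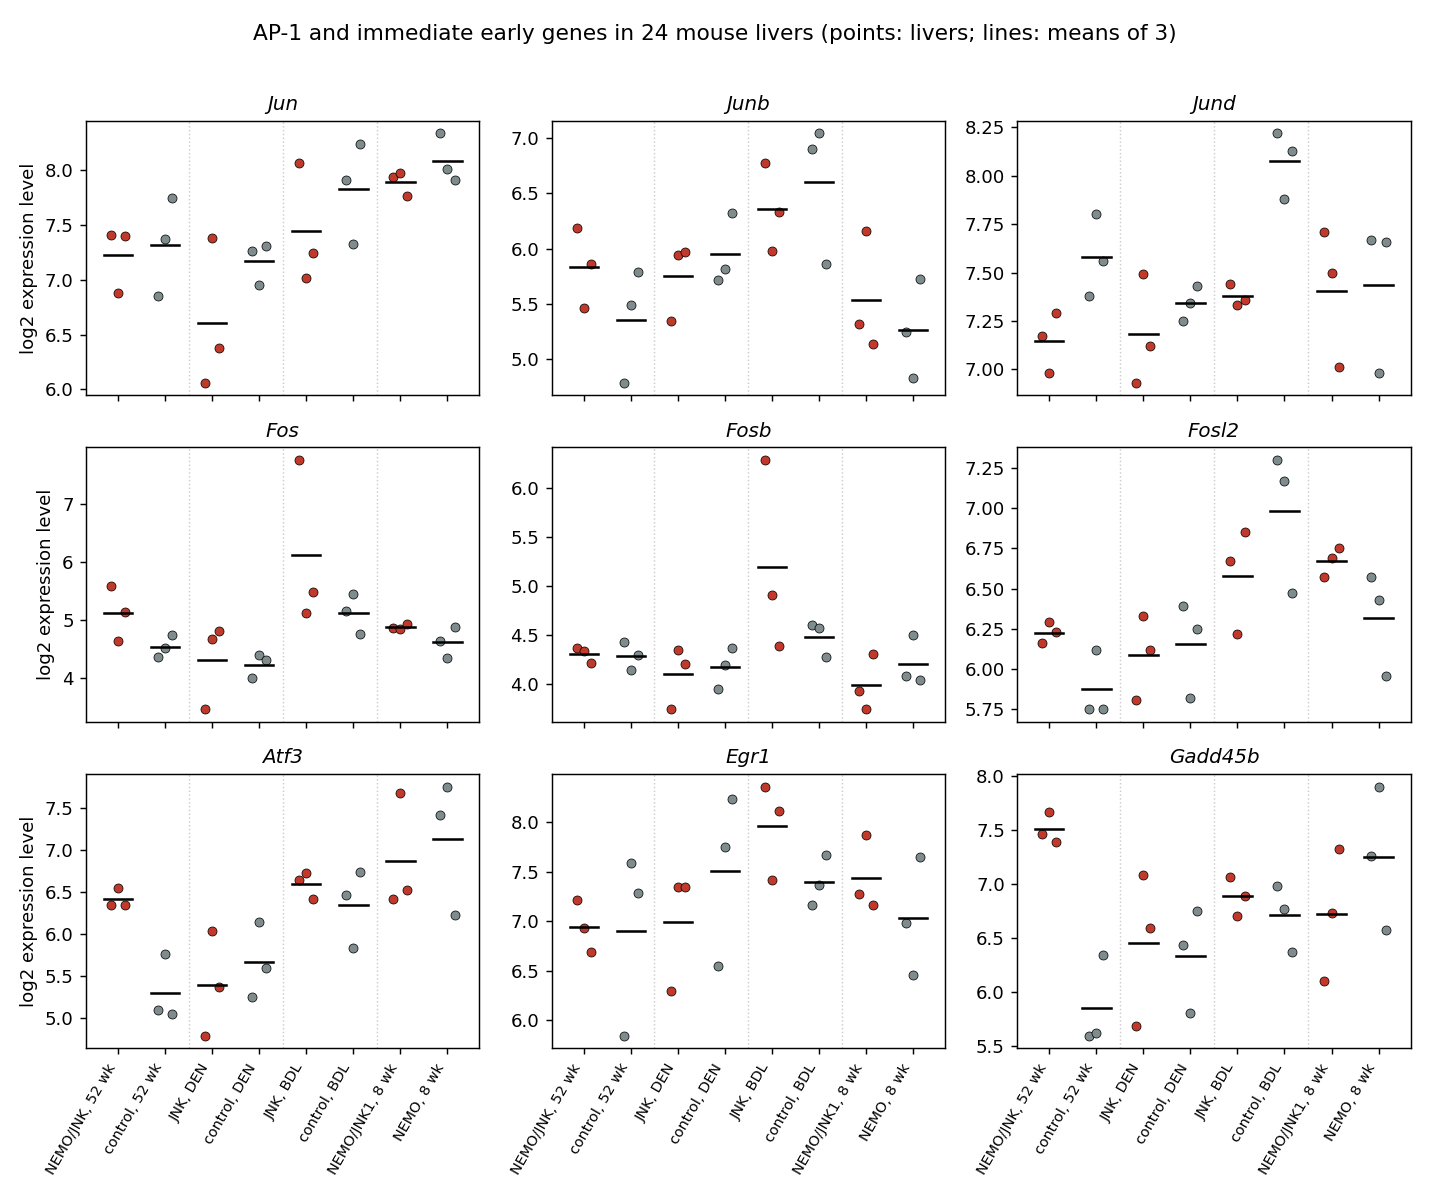
Log2 expression level of each of the 9 measured genes (vertical axis, a scale of its own per gene) in each of 24 livers, by group along the horizontal axis; points are livers, red for the groups with the larger number of deleted genes in each pair and grey for their references, and lines are means of 3. Gadd45b and Atf3 lie higher in NEMO/JNK than in control livers at 52 weeks without overlap, Jund lies lower in JNK than in control livers after BDL, and 1 JNK liver after BDL holds the highest Fos and Fosb values.

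Across the 8 groups, 5 of the 9 genes differed by limma's F test at an adjusted p under 0.05, against 22.1% of all genes. They were Atf3 (adjusted p = 0.00874), Fosl2 (0.013), Jund (0.0242), Jun (0.0244) and Gadd45b (0.0353). Junb (0.0516), Fos (0.0606), Fosb (0.0887) and Egr1 (0.407) did not pass. Genotype, injury, age and experiment differ together between the groups, so the test does not tell them apart. Without the first liver labelled NEMO at 8 weeks, Jun (0.0506) and Gadd45b (0.0566) did not pass, and 3 of the 9 were called. The number called was 4 without control replicate 1 or 2 or any NEMO/JNK liver at 52 weeks. It was also 4 without JNK DEN replicate 3, control BDL replicate 1 or JNK BDL replicate 1. The calls thus depended on single livers.

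Each gene had its own order of groups. Jun, the core AP-1 subunit, had its highest group means at 8 weeks, at 7.90 ± 0.11 in the NEMO/JNK1 livers and 8.08 ± 0.23 in livers labelled NEMO, and its lowest in JNK knockouts after DEN, at 6.61 ± 0.69 (SD, n = 3, as for all group means). Junb, a Jun protein that often opposes c-Jun, was highest after BDL, at 6.36 ± 0.40 in JNK knockouts and 6.60 ± 0.65 in controls. Fosl2, which encodes Fra-2, a Fos protein without the strong activation domain of c-Fos, reached 6.98 ± 0.45 in controls after BDL and was lowest in controls at 52 weeks, at 5.87 ± 0.21. Atf3, a stress-induced bZIP factor, ran between 7.13 ± 0.81 in livers labelled NEMO at 8 weeks and 5.30 ± 0.40 in controls at 52 weeks. Gadd45b ran between 7.50 ± 0.14 in NEMO/JNK knockouts and 5.85 ± 0.43 in controls at 52 weeks. With groups ordered by mean, each gene has 7 neighbouring pairs, and the livers of neighbours overlapped in all of them for 8 of the 9 genes. The exception was Jund: the 3 control livers after BDL (7.88 to 8.22) lay above all 21 other livers, the highest of which was at 7.80.

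In untreated mice at 52 weeks, Gadd45b and Atf3 rose in NEMO/JNK knockout livers, by 3.15-fold and 2.16-fold, while none of the Jun or Fos genes passed the test. The 2 calls among 9 genes stand beside 13.6% of all genes called higher, and the 0 calls lower beside 7.9%. The livers of the 2 groups did not overlap for 4 of the 9 genes (44.4%), close to the 41.2% of all genes, so the share that separated was near the background. In whole liver, fewer cells of a type and less RNA per cell cannot be told apart.

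Gadd45b, at 7.46, 7.66 and 7.39 in the 3 NEMO/JNK livers, stood at 5.59, 5.62 and 6.34 in the 3 control livers. All knockout livers were above all controls, with a gap of 1.05 between the nearest livers. The difference was 1.65 (SE 0.20, adjusted p = 0.000894, limma). It passed under every alternative run, at 1.33 to 1.90.

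Atf3 was at 6.35, 6.55 and 6.34 in NEMO/JNK livers and at 5.10, 5.76 and 5.05 in control livers. All knockout livers lay above all controls, with a gap of 0.58. The difference was 1.11 (SE 0.19, adjusted p = 0.00441), and it missed the threshold in the fit of all 24 arrays (0.0533).

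Jund, which encodes the Jun protein least dependent on stimulation, had values of 7.17, 6.98 and 7.29 in NEMO/JNK livers and 7.38, 7.80 and 7.56 in control livers. The knockout livers were all lower, but the difference of -0.43 (95% interval -0.77 to -0.10) did not pass over all genes (adjusted p = 0.0693). It passed with arrays centred (-0.76, 0.0028), with quantile normalisation (-0.51, 0.0195), with array weights (-0.45, 0.0453) and without control replicate 1 (-0.54, 0.0438). Centring called 8942 of the 18820 genes lower and quantile normalisation 2426, against 1486 for values as deposited. Under centring the typical gene already stood at -0.37, so passing there does not set Jund apart from other genes.

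Fosl2 was at 6.16, 6.29 and 6.23 in NEMO/JNK livers and at 5.75, 6.12 and 5.75 in control livers, again without overlap. The difference of 0.35 (95% interval 0.04 to 0.66, adjusted p = 0.0986) was 0.03 with arrays centred and 0.13 with quantile normalisation, and it passed without control replicate 2 (0.48, 0.0394). Fos was at 5.59, 4.65 and 5.14 in NEMO/JNK livers and at 4.36, 4.53 and 4.74 in control livers, so that 1 knockout liver lay among the controls. Its difference was 0.59 (95% interval 0.08 to 1.10, adjusted p = 0.0965), and it passed without the overlapping NEMO/JNK replicate 2 (0.83, 0.019). Junb had a difference of 0.48 (interval -0.13 to 1.09), with livers at 6.19, 5.46 and 5.86 in NEMO/JNK and 4.79, 5.49 and 5.79 in control.

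Jun, Fosb and Egr1 differed little in mean at 52 weeks. Jun was at 7.41, 6.88 and 7.40 in NEMO/JNK livers and at 6.85, 7.37 and 7.75 in controls (difference -0.10, interval -0.63 to 0.44). Egr1, a zinc finger factor switched on through serum response factor, was at 7.21, 6.93 and 6.69 in NEMO/JNK livers and at 5.84, 7.59 and 7.28 in controls. The knockout livers of Egr1 lay inside the range of the controls, and the interval ran from -0.85 to 0.93. For Fosb the interval was the narrowest of the 9, from -0.27 to 0.29, around values of 4.37, 4.34 and 4.21 in NEMO/JNK livers and 4.43, 4.14 and 4.30 in controls. These values lie below the median of every array (4.52 to 4.66), so that they are not shown to be above background. Over the 24 arrays Fosb averaged 4.34 and Fos 4.87, and the filter on dim genes (mean under 5) removed both. The small differences of Fosb (0.01) and Egr1 (0.04) changed sign with arrays centred, to -0.31 and -0.28, a scaling that moved the median difference of all genes to -0.37, against -0.05 as deposited.

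**Figure D2:**
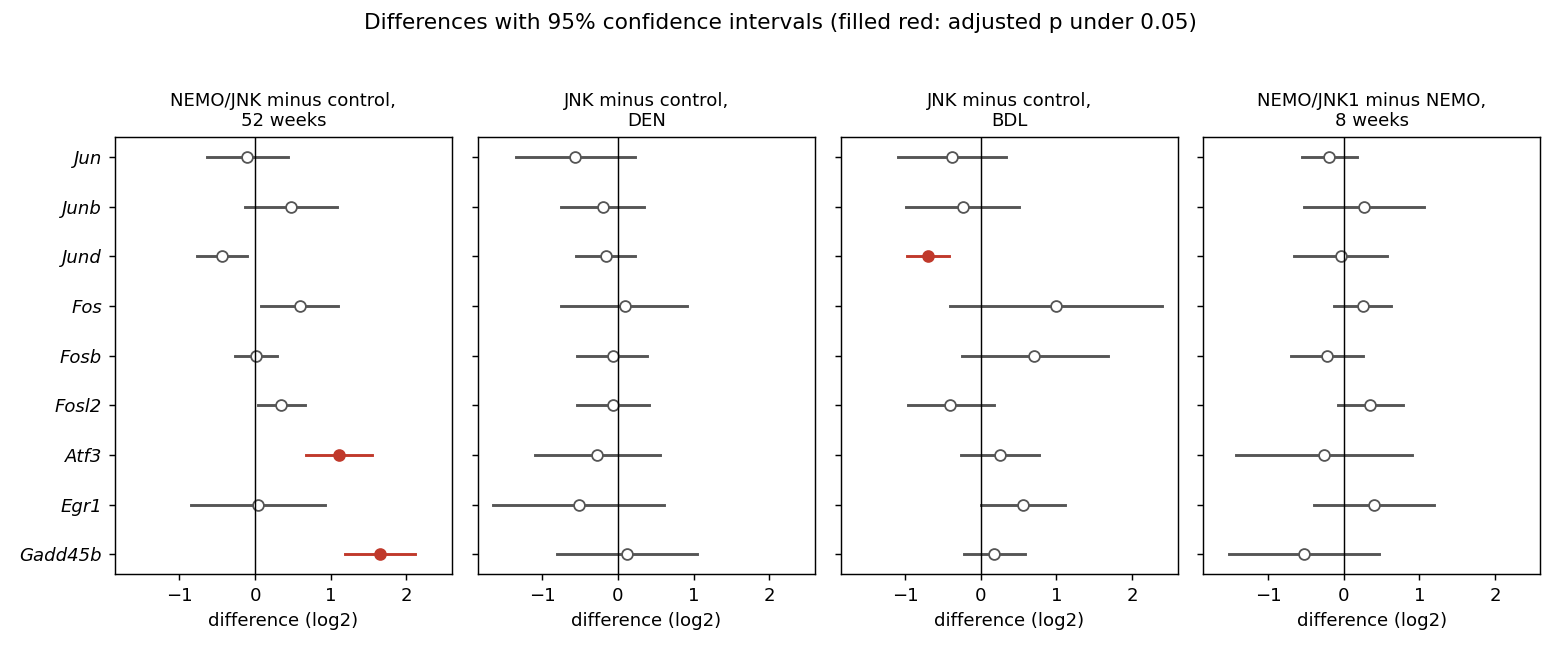
Difference in log2 level (horizontal axis) between the 2 groups of each knockout comparison for the 9 genes (vertical axis), with 95% confidence intervals from limma; filled red points passed an adjusted p under 0.05 over all genes and open points did not. Gadd45b and Atf3 passed at 52 weeks, Jund passed after BDL, and no gene passed after DEN or at 8 weeks.

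Genes around AP-1 were counted at 52 weeks on 4 lists, beside 13.6% of all genes called higher and 7.9% lower. The lists were written with earlier results of these data known, so their counts are a description and not an independent test. Of 27 measured genes that are known AP-1 targets in the literature, 17 rose and 0 fell, with a median difference of 1.14 beside -0.05 over all genes. The 3 with the smallest p were Ccnd1, which encodes cyclin D1 (9.87 ± 0.15 in NEMO/JNK livers and 6.84 ± 0.43 in control livers, difference 3.03), Ezr, which encodes the membrane linker ezrin (2.89), and Hbegf, a ligand of the EGF receptor (1.99), with adjusted p-values of 5.59e-05, 6.88e-05 and 0.000163. Hbegf averaged 4.39 ± 0.05 in control livers, below the median of every array (4.52 to 4.66), so that it is not shown to be above background there. In NEMO/JNK livers it was at 6.38 ± 0.33. The counts were 12 higher in the fit of all 24 arrays, and 16 higher and 2 lower with arrays centred.

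Of 36 other immediate early genes, 14 rose and 1 fell, with a median of 0.35, beside 13.6% of all genes called higher and 7.9% lower. Ccn2, a matricellular protein gene that responds to TGF-beta and YAP, rose by 2.47 (adjusted p = 5.9e-05), and Myc rose by 1.37 (0.00192). Nfil3, a bZIP repressor tied to the circadian clock, fell by 2.05 (0.00108). The counts were 10 higher and 7 lower with arrays centred, and 8 higher in the fit of all 24 arrays.

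Among 20 other AP-1 and bZIP partners, 2 rose and 1 fell, with a median of 0.14. These shares are near those of all genes (13.6% called higher and 7.9% lower). Jdp2, a repressor that dimerises with Jun proteins, rose by 0.46 and the small Maf protein gene Mafk by 0.62 (adjusted p 0.0201 and 0.0342). Neither passed with arrays centred (0.13 and 0.29), and both calls were also lost without control replicate 3 and without NEMO/JNK replicate 1 or 2, among others. Crem, a cAMP-responsive bZIP gene, fell by 0.78 (0.0334), a call lost with the replicate block (0.0658) and without any of 4 of the 6 livers. Of 21 genes of MAP kinase signalling to AP-1, 4 rose and 1 fell, also near the shares of all genes. Map3k1, a kinase upstream of JNK, rose by 1.49 (0.00061) and the JNK scaffold gene Mapk8ip1 by 0.73 (0.00239). The gene that fell was the targeted Mapk8 (-0.87). Mapk8ip1 did not pass in the fit of all 24 arrays (0.101), which called 1 gene of this list higher.

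**Figure D3:**
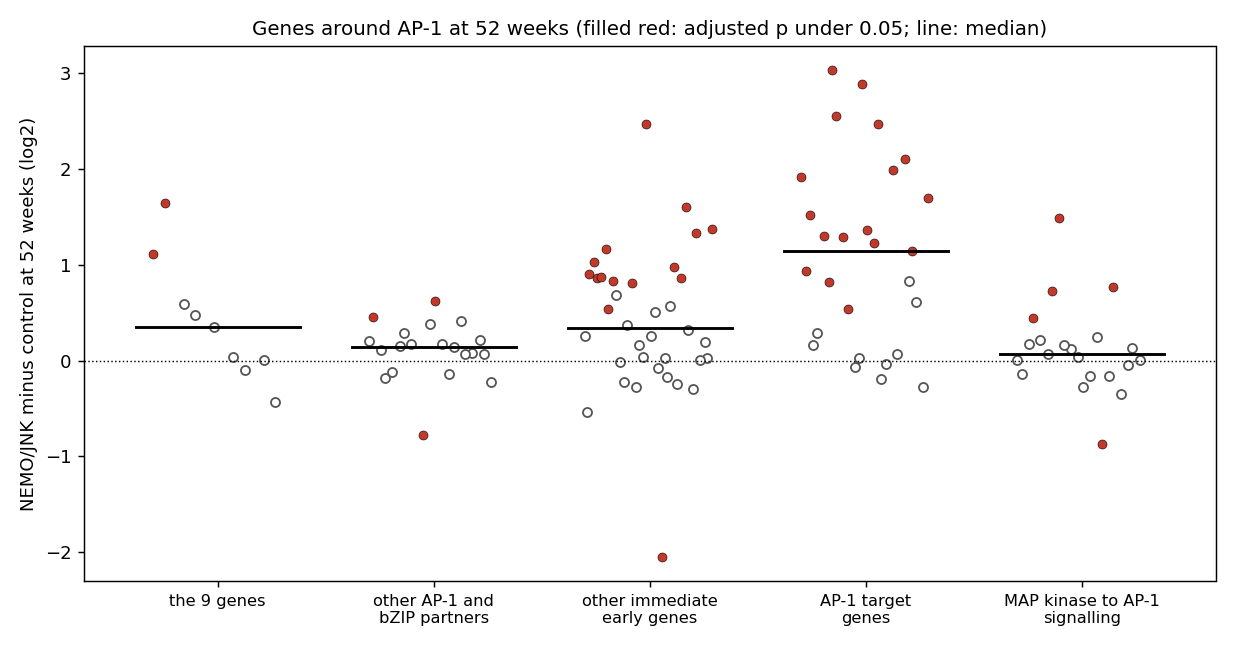
Difference in log2 level between NEMO/JNK knockout and control livers at 52 weeks (vertical axis) for each gene of 5 lists (horizontal axis); filled red points passed an adjusted p under 0.05, open points did not, and lines are medians. The AP-1 target list holds 17 filled points above 0 and none below, and the 9 listed genes hold 2.

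Markers of other cell types moved with these changes at 52 weeks, when 13.6% of all genes were called higher and 7.9% lower. All 9 measured cholangiocyte markers rose, and their summed linear level was 2869 to 4068 in NEMO/JNK livers, against 283 to 460 in control livers. Of 10 macrophage markers 8 rose (5332 to 9097 in NEMO/JNK livers, against 2236 to 3474 in control livers), of 7 proliferation markers 6 (483 to 616, against 159 to 268 in control livers), and of 7 T and NK cell markers 5 (339 to 649, against 142 to 234 in control livers). Of 4 B and plasma cell markers 2 rose, and their sums were 1258 to 1539 in NEMO/JNK livers, against 100 to 476 in control livers. Counts were smaller for neutrophils (1 of 5 rose), sinusoidal endothelium (1 of 6 rose and 1 fell) and stellate cells and myofibroblasts (2 of 9 rose and 1 fell). No hepatocyte marker of 9 was called, at sums of 52082 to 55587 in NEMO/JNK livers and 46919 to 56954 in control livers. The lowest value of any of these markers over the 24 arrays was 2.55, for Gzma. The part of these cells in the levels of Gadd45b, Atf3 and the AP-1 target genes was not tested.

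After DEN, livers labelled JNK knockout and livers labelled control showed no called difference in any of the 9 genes. No gene of the 18820 passed in this comparison either, in either direction (0% of genes called higher and 0% lower by limma), while 781 genes and 0 of the 9 had an unadjusted p under 0.05. None of the 9 separated the groups without overlap, which 9.47% of all genes did.

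Egr1 was at 6.29, 7.34 and 7.35 in JNK livers after DEN, against 6.55, 7.75 and 8.23 in control livers. Its mean was lower in the knockouts by 0.52, and the interval of the difference, -1.65 to 0.61, was the widest of the 9. Leaving out single livers gave -0.16 (without control replicate 3) to -1.0 (without control replicate 1), with no adjusted p under 0.05. Jun was at 6.06, 7.38 and 6.38 in JNK livers and at 7.26, 6.95 and 7.31 in control livers. JNK replicates 1 and 3 lay below all 3 controls and replicate 2 above them, so the difference of -0.57 had an interval of -1.35 to 0.22. It was -0.29 without JNK replicate 1 and -0.95 without JNK replicate 2 (adjusted p 0.857 and 0.887). Jund stood at 6.93, 7.49 and 7.12 in JNK livers and 7.25, 7.34 and 7.43 in control livers (interval -0.56 to 0.23).

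Fos, at 3.47, 4.68 and 4.82 in JNK livers after DEN, was at 4.0, 4.40 and 4.31 in control livers (interval -0.75 to 0.92). Gadd45b was at 5.68, 7.08 and 6.59 in JNK livers and at 6.43, 5.80 and 6.75 in control livers (interval -0.80 to 1.04). For both genes the control livers lay inside the range of the knockouts. Junb (interval -0.75 to 0.35), Fosb (-0.54 to 0.39), Fosl2 (-0.54 to 0.41) and Atf3 (-1.10 to 0.56) also overlapped. Among the JNK livers, replicate 1 lay below its group mean in all 9 genes and replicate 2 above it in all 9. Of all genes, 53.3% and 45.6% lay above the group mean in those livers.

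**Figure D4:**
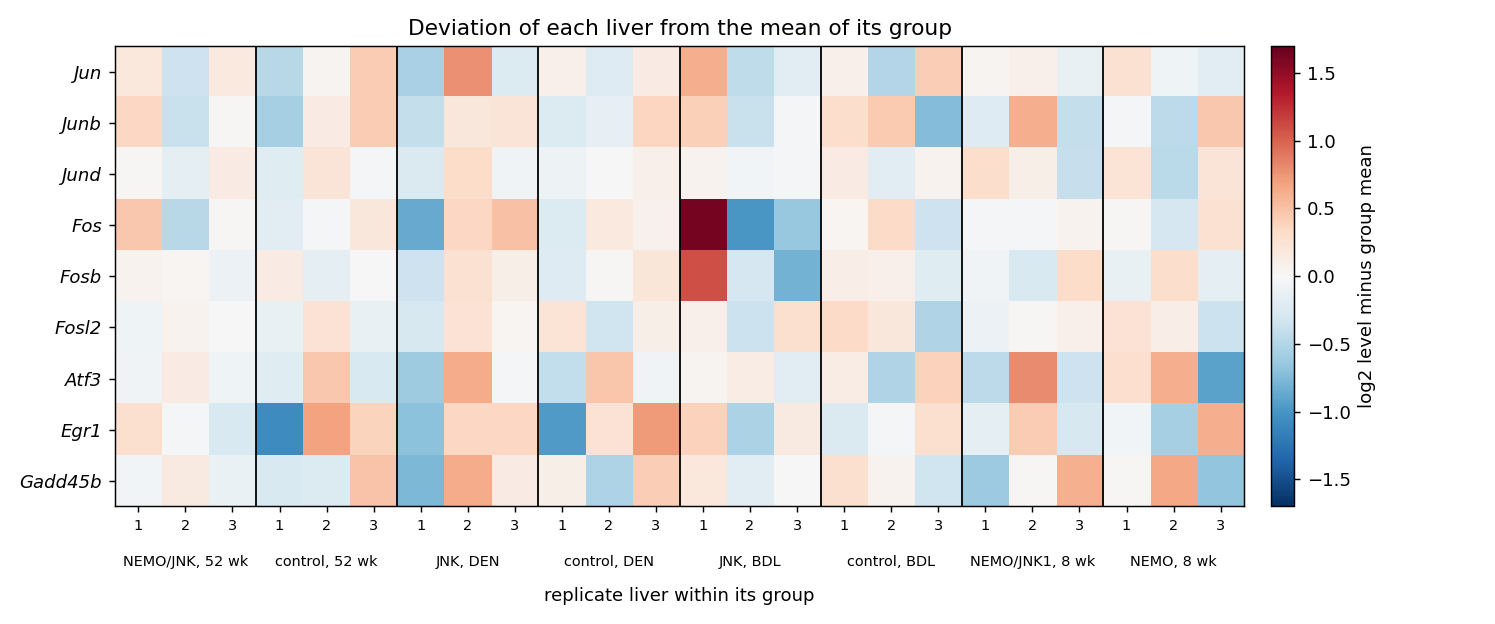
Log2 level of each liver minus the mean of its group (colour, red above and blue below) for the 9 genes (rows) and 24 livers (columns, by group and replicate). JNK replicate 1 after DEN is below its group mean in all 9 genes, and JNK replicate 1 after BDL is above in all 9, by up to 1.63 for Fos.

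After BDL, Jund was lower in livers labelled JNK knockout than in livers labelled control, by 1.62-fold, and no other gene of the 9 passed. The 1 call lower among 9 stands beside 0.558% of all genes called lower, and the 0 calls higher beside 0.797%. Jund was also the only 1 of the 9 without overlap (11.1%), which 20.7% of all genes reached.

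Jund was at 7.44, 7.33 and 7.36 in JNK livers after BDL and at 8.22, 7.88 and 8.13 in control livers. The knockout livers lay close together and all below the controls. The difference was -0.70 (SE 0.12, adjusted p = 0.0374, limma). The call was lost with the replicate block (0.0795), with all 24 arrays (0.118), and without control replicate 1 (0.117) or 3 (0.0505) or JNK replicate 1 (0.137), 2 (0.173) or 3 (0.144), with differences of -0.63 to -0.80. Of the 3 controls, 2 came from another animal series than the JNK mice by the prefix of their identifiers; the control of the same series was at 8.13, and with series as a block the difference was -0.76 (adjusted p = 0.13).

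The difference in Jund between JNK and control livers after BDL, minus that after DEN, was -0.54 (95% interval -0.98 to -0.09), with an unadjusted p of 0.0236 and an adjusted p of 0.625. No gene of the 9 passed this interaction test, which called 0.0213% of all genes higher and 0.0266% lower, and 1 of the 9 (Jund) had an unadjusted p under 0.05. The differences after the 2 injuries were thus not shown to be unequal for any of these genes. On the 4 gene lists the smallest p belonged to Il6 (0.54, adjusted p = 0.32), Sgk1 (0.94, 0.56), Mapk8ip3 (-0.34, 0.689) and Maf (0.32, 0.736).

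Fos, at 7.75, 5.13 and 5.48 in JNK livers after BDL, was at 5.16, 5.45 and 4.77 in control livers. Fosb followed, at 6.29, 4.91 and 4.39 in JNK livers and 4.60, 4.57 and 4.28 in control livers. In both genes JNK replicate 1 stood above all 23 other livers of the study. The mean differences of 0.99 for Fos (interval -0.41 to 2.40) and 0.71 for Fosb (-0.25 to 1.68) did not pass, and without that liver they were 0.18 and 0.17. The same liver was above its group mean in all 9 genes, beside 50.3% of all genes.

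Egr1 was at 8.36, 7.42 and 8.11 in JNK livers after BDL and at 7.16, 7.37 and 7.67 in control livers. Its difference of 0.56 had an unadjusted p of 0.0497 and an adjusted p of 0.341. Jun was at 8.07, 7.02 and 7.25 in JNK livers, against 7.91, 7.33 and 8.24 in control livers (interval -1.10 to 0.33). Junb (-0.99 to 0.51), Fosl2 (-0.96 to 0.17), Atf3 (-0.26 to 0.77) and Gadd45b (-0.22 to 0.58) overlapped too. The signs of Junb, Fosl2 and Atf3 turned with animal series as a block.

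Of 27 AP-1 target genes, 1 was called higher and 1 lower in JNK livers after BDL, beside 0.797% of all genes called higher and 0.558% lower. The higher 1, the cytokine gene Il6, was at 2.70 ± 0.05 in JNK livers and 2.09 ± 0.08 in control livers (difference 0.61, adjusted p = 0.0306), below the median of every array, so that it is not shown to be above background, and the filter on dim genes removed it. The lower 1 was Krt18, a keratin gene of hepatocytes and bile ducts (10.15 ± 0.03 in JNK livers and 10.82 ± 0.20 in control livers, difference -0.68, adjusted p = 0.0487). Both calls were lost with the replicate block (0.0879 and 0.1), with the series block (0.125 and 0.115) and without control replicate 1 or any JNK replicate, and that on Krt18 also with all 24 arrays (0.399) and without control replicate 3 (0.062). Among 36 other immediate early genes none passed, against 5 lower without control replicate 3, and Klf6, a zinc finger gene, had the smallest p (difference -0.83, adjusted p = 0.0516, below 0.05 with arrays centred, dim genes removed, array weights, or without control replicate 2). No bZIP partner passed of 20, where Mafk had the smallest p (-0.50, 0.105), and of 21 MAP kinase genes only Mapk8 passed.

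Summed levels of cholangiocyte markers were 1168 to 1679 in JNK livers after BDL, against 664 to 983 in control livers, and those of macrophage markers 6917 to 8002 in JNK livers, against 5760 to 6635 in control livers. Of these lists, 1 of 9 and 2 of 10 markers rose, beside 0.797% of all genes called higher and 0.558% lower. Neutrophil marker sums were 604 to 746 in JNK livers and 269 to 553 in control livers, with 0 of 5 called. Hepatocyte marker sums did not overlap either, at 54758 to 56444 in JNK livers and 52607 to 54701 in control livers, with 0 of 9 called. Sums of the other lists overlapped, with 1 of 7 proliferation markers higher and 1 of 6 sinusoidal endothelial markers lower. Of 9 stellate and myofibroblast markers, 1 was higher and 1 lower. The part of these cell types in the Jund difference was not tested.

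The injuries differ in kind and in duration, and both comparisons of BDL with DEN use livers of the knockout comparisons, including the control livers after BDL. In controls, Jund rose after BDL, at 8.22, 7.88 and 8.13, against 7.25, 7.34 and 7.43 after DEN. The difference was 0.74 (SE 0.13, adjusted p = 0.0353), and it was the only call among 9, beside 1.74% of all genes called higher and 0.739% lower. It was lost with arrays centred (0.0562), the replicate block (0.104), the series block (0.319), and without control BDL replicate 1 (0.158) or 3 (0.0551) or any control DEN replicate (0.0867, 0.108 and 0.0922).

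Jun, Fos and Fosl2 were also higher in every control liver after BDL than in every control liver after DEN, by 0.65, 0.89 and 0.82, with adjusted p-values of 0.183, 0.0634 and 0.128. With Jund, 4 of the 9 genes (44.4%) separated, beside 24.9% of all genes. Of the 3 control BDL livers, 2 came from another animal series than the DEN livers, so series and injury are partly confounded here. The control BDL liver of the same series was the lowest of the 3 for Fosl2 (6.47) and Fos (4.77) and the highest for Jun (8.24). The highest control DEN livers were at 6.39, 4.40 and 7.31. Fos averaged 4.24 in controls after DEN, below the median of every array (4.52 to 4.66). In JNK knockouts all 9 means were higher after BDL than after DEN, by 0.20 for Jund to 1.80 for Fos (0.98 without JNK BDL replicate 1), yet none passed, beside 0.77% of all genes called higher and 0.313% lower. By unadjusted p under 0.05, 6 of the 9 passed, beside 13.4% of all genes. The number was 1 with the replicate block or without JNK DEN replicate 1 or JNK BDL replicate 1. It was 2 with dim genes removed, a filter that takes out Fos and Fosb. It was 3 without JNK DEN replicate 3 or JNK BDL replicate 3, and 8 without JNK DEN replicate 2. The groups did not overlap for 5 of the 9 (55.6%), beside 19.9% of all genes. The smallest p among them was that of Atf3, with livers at 6.64, 6.72 and 6.42 after BDL and 4.79, 6.03 and 5.37 after DEN (difference 1.20, adjusted p = 0.138). It passed with array weights (0.00482) and without JNK DEN replicate 2 (0.00989).

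Other immediate early genes were called for 2 of 36 in each genotype. Of all genes, 1.74% were called higher in controls and 0.77% in JNK knockouts. Myc and Klf6 rose after BDL in controls, by 1.41 and 1.13 (adjusted p 0.0342 and 0.0378), and Sgk1 and Gadd45g in JNK knockouts, by 1.87 and 2.47 (0.00744 and 0.0245). Sgk1 encodes a kinase induced by serum and glucocorticoid, and Gadd45g a relative of Gadd45b. AP-1 target genes rose for 7 of 27 in controls and 2 of 27 in JNK knockouts. Timp1, an inhibitor of matrix metalloproteinases, rose in both, by 2.44 in controls (0.00523) and 2.00 in JNK knockouts (0.0296). Cd44, a hyaluronan receptor, and Vim, an intermediate filament gene, rose in controls by 1.38 (0.0228) and 1.06 (0.0295), and the haem oxygenase gene Hmox1 in JNK knockouts by 1.25 (0.0417). Of 21 MAP kinase genes, Mrtfa, which encodes a coactivator of serum response factor, rose in controls (0.94, 0.0486), and none was called in JNK knockouts, where Map3k1 had the smallest p (0.99, 0.204). No bZIP partner was called, the smallest p being that of Creb5 in controls (0.52, 0.0561) and of Cebpd in JNK knockouts (1.05, 0.0836). In controls the calls on Myc, Klf6, Timp1 (0.0844), Cd44, Vim and Mrtfa were lost with the series block, and all of these but Timp1 also without control DEN replicate 1. In JNK knockouts the calls on Sgk1, Gadd45g, Timp1 and Hmox1 were lost with the replicate block (0.0631, 0.0814, 0.107 and 0.108) and without any of the 3 JNK BDL livers. Whether the genotypes differ in these counts was not tested. The count in controls was 1 without control DEN replicate 1 and 0 with the series block, and that in JNK knockouts 0 without JNK DEN replicate 1, 13 without JNK DEN replicate 2 and 0 with the replicate block. Immediate early genes numbered 0 in controls without control DEN replicate 1 and 8 without control BDL replicate 3, and in JNK knockouts 0 without JNK BDL replicate 1 and 10 without JNK DEN replicate 2. Of the 9 stellate and myofibroblast markers, 7 rose in controls, with sums of 5269 to 7402 after BDL, against 2329 to 2801 after DEN, and 4 rose in JNK knockouts, with sums of 5649 to 6161 after BDL, against 2216 to 2887 after DEN.

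At 8 weeks, livers labelled NEMO/JNK1 and livers labelled NEMO showed no called difference in the 9 genes, nor in any gene of the array (0% of genes called higher and 0% lower by limma, with 1442 genes and 0 of the 9 at an unadjusted p under 0.05). None of the 9 separated the groups, which 14.4% of all genes did. The 2 groups came from different animal series by identifier, so series and genotype cannot be told apart.

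Fosl2 was at 6.57, 6.69 and 6.75 in the NEMO/JNK1 livers and at 6.57, 6.43 and 5.96 in livers labelled NEMO, which touch at 1 value after rounding. Its difference was 0.35 (interval -0.08 to 0.78). Gadd45b was at 6.10, 6.73 and 7.32 in the NEMO/JNK1 livers and at 7.26, 7.90 and 6.57 in livers labelled NEMO, a difference of -0.52 with an interval of -1.51 to 0.47. Atf3 had its highest livers of the study here, at 6.42, 7.67 and 6.52 in the NEMO/JNK1 livers and at 7.41, 7.75 and 6.22 in livers labelled NEMO (interval -1.42 to 0.90).

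Jun was at 7.94, 7.98 and 7.77 in the NEMO/JNK1 livers and at 8.34, 8.01 and 7.91 in livers labelled NEMO (interval -0.55 to 0.18). Fos was at 4.86, 4.85 and 4.94 in the NEMO/JNK1 livers and at 4.65, 4.35 and 4.89 in livers labelled NEMO (-0.13 to 0.63). The intervals of Junb (-0.52 to 1.06), Jund (-0.65 to 0.58), Fosb (-0.69 to 0.26) and Egr1 (-0.39 to 1.19) also held 0. None of the 4 gene lists around AP-1 had a called member in this comparison or after DEN. At 8 weeks the smallest p of each list belonged to Ezr (difference 1.32, adjusted p = 0.544), Jdp2 (0.63, 0.544), Mcl1, an anti-apoptotic BCL2 family gene (0.54, 0.602), and Mapk8 (-0.61, 0.602). After DEN it belonged to Timp1 (0.91), Cebpd (-0.46), Egr3 (0.31) and Mapk8 (-0.64), each at an adjusted p of 0.985.

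Within groups, the 9 genes tended to deviate in the same livers. Over the 36 pairs of genes, the correlation of deviations from group means across 24 arrays was above 0 in 33, with a median of 0.27. Without JNK replicate 1 after BDL it was above 0 in 29, with a median of 0.25 and a lowest value of -0.30. The share above 0 among pairs of all genes was not computed, so the count is not shown to be particular to these genes. Arrays share RNA quality and processing among all their genes, so these values are a description. The highest was 0.77 for Fos and Fosb, which was 0.32 without JNK replicate 1 after BDL. Junb and Egr1 (0.65), Junb and Fos (0.61), Fosl2 and Gadd45b (0.61) and Jun and Jund (0.55) were at 0.63, 0.69, 0.60 and 0.59 without it. Jund and Gadd45b ran the other way, at -0.26.

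The genes most like each of the 9 over the 24 arrays were taken by Pearson's r of log2 levels. For Atf3 they were Uap1l1, Nabp1 and Mpp1, each at 0.90, with 0.78, 0.80 and 0.84 for deviations from group means. For Gadd45b they were Lama5 (0.88), Nol4l (0.87) and Lpcat4 (0.85), and for Fosl2 Flot1 (0.90), Tifa (0.86) and Smg1 (0.85). Junb was most like Sf3b3 and Pcm1 (0.85 each) and Thrap3 (0.84), Jun like Heatr6 and Cxadr (0.78 each) and Washc5 (0.77), Jund like Pdlim1 (0.79), Sele and Reln (0.74 each), and Egr1 like Defb45 (0.74), Tpra1 and Eps15l1 (0.70 each). Kcne4 was the nearest gene to both Fosb (0.90) and Fos (0.84), at 0.74 and 0.60 without JNK replicate 1 after BDL. The other genes nearest to Fos were Fgf7 and Zfp236 (0.79 each), and to Fosb Aoc3 (0.75) and A2m (0.72), at 0.67, 0.69, 0.56 and 0.45 without that liver.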

How the data were processed

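A single Affymetrix array was run per liver, with whole-transcript labelling. The deposited values per probe set are on a log2 scale, and RMA is the tool named in the submitters' processing notes. Which chip definition was used, and which arrays were normalised in 1 run, is not given in the sources used here. Of 35556 probe sets, 21218 had 1 gene symbol and stood for 18820 genes. A gene with several was represented by the one of highest mean level over the 24 arrays, and probe sets with several symbols were not used.

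The tests between groups were run in limma 3.58.1 (R 4.3.3) on the values as deposited, with no filter. Tests were two-sided, Benjamini-Hochberg adjustment ran over all genes, and the threshold for a call was an adjusted p of 0.05. Pairs of groups used their own 6 arrays, the interaction 12 and the F test 24. The procedure was tested on simulated data. Alternatives were array centring, quantile normalisation, a filter on dim genes, the highest-variance probe set, array weights, blocks for replicate number and animal series, all 24 arrays, and leaving out each liver.

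The genes, lists, markers and tests were chosen with earlier results of these data known. Named list genes are up to 3 called genes per list and comparison by smallest p, or 1 gene with the smallest p as a value where none was called. The nearest 3 genes by correlation are named without predicted-gene, olfactory, vomeronasal and small RNA names. The motifs were chosen after the data were seen.

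Marker sums are sums of 2 to the power of the log2 level. Each liver came from a separate mouse, and precision is limited by how few arrays a group has.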

Additional observations from a re-analysis of the deposited data

How the results depend on the processing

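Of the 9 genes' differences, none that passed reversed under any alternative. At 52 weeks the genes called higher numbered 2, 1 with all 24 arrays, and 2 to 3 leaving out single livers; those called lower numbered 0, and 1 (Jund) with arrays centred, quantile normalisation or array weights, and 0 to 1 leaving out single livers. After BDL the 1 called lower became 0 with the replicate block, all 24 arrays or the animal series block, and 0 to 1 leaving out livers. Of BDL against DEN, the 1 called higher in controls became 0 with arrays centred, the replicate block or the series block, 2 with array weights or all 24 arrays, and 0 to 3 leaving out livers; the 0 in JNK knockouts became 1 with array weights and 0 to 1 leaving out livers. The F test called 5, 8 with arrays centred or array weights, and 3 to 6 leaving out livers. The cause of these changes was not tested. Signs turned only for differences that had not passed. At 52 weeks these were Fosb (-0.31 centred, -0.16 quantile) and Egr1 (-0.28 centred, -0.07 quantile, -0.25 weights), and Jun, Fosb and Egr1 leaving out livers (-0.33 to 0.12, -0.06 to 0.08 and -0.49 to 0.39). After BDL they were Junb (0.50), Fosl2 (0.11) and Atf3 (-0.14) with the series block, and Atf3 leaving out livers (-0.005 to 0.45). After DEN they were, leaving out livers, Junb (-0.32 to 0.003), Fos (-0.16 to 0.51), Fosb (-0.20 to 0.11), Fosl2 (-0.23 to 0.07), Atf3 (-0.59 to 0.03) and Gadd45b (-0.19 to 0.50). At 8 weeks they were Junb (-0.04 to 0.50), Jund (-0.26 to 0.17) and Atf3 (-0.72 to 0.05) leaving out livers, and Jund with weights (0.01). In the interaction they were Jun (-0.23), Junb (0.70) and Fosl2 (0.18) with the series block, Junb centred (0.005) and with quantile normalisation (0.03), Gadd45b with weights (-0.14), and Jun (-0.13 to 0.57), Junb (-0.41 to 0.18) and Gadd45b (-0.33 to 0.37) leaving out livers. Of BDL against DEN in controls they were Junb (-0.09) and Egr1 (0.16) with the series block and Egr1 (-0.59 to 0.25) leaving out livers. Mapk9 turned at 8 weeks centred (-0.04) and with weights (-0.05) and leaving out livers (-0.12 to 0.15, -0.21 to 0.04 after DEN and -0.01 to 0.14 after BDL), as did Ikbkg after DEN (-0.35 to 0.01). Genes called in all moved by over 1.5 times as follows: at 52 weeks 4048 became 10512 with arrays centred (1570 higher and 8942 lower, against 2562 and 1486, and 2115 and 2426 with quantile normalisation); after BDL 255 became 391 with weights, 142 with the replicate block, 116 with all 24 arrays and 118 with the series block; at 8 weeks 0 became 2 with weights and 57 with all 24 arrays; the interaction's 9 became 5 without dim genes or with the series block and 68 with weights; BDL against DEN in controls 466 became 832, 109, 715 and 15 with weights, the replicate block, all 24 arrays and the series block, and in JNK knockouts 204 became 2482 with weights and 1 with the replicate block; the F test's 4162 became 7162 centred and 8414 with weights. Leaving out single livers gave 2693 to 3671 at 52 weeks, 58 to 559 for JNK after BDL, 2 to 26 for the interaction, 56 to 858 and 3 to 1326 for BDL against DEN in controls and in JNK knockouts, 0 to 2 for JNK after DEN and 3013 to 5048 for the F test. Replicate numbers were not taken to pair the livers. The correlation of deviations between same-numbered livers of the 4 knockout comparisons lay between -0.07 and 0.36. At 52 weeks each knockout liver correlated best with the control of its own number, at 0.02 to 0.04. After DEN this held for JNK replicates 1 (0.36) and 2 (0.30) and not for 3 (0.04). There the replicate block gave 1088 genes and 1 of the 9 at an unadjusted p under 0.05 (limma), against 781 and 0, with 0 genes called in both. The 3 livers in each group limit all of these values.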
